A study of Mus musculus with 8 samples.

Results

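Lone promoters, the 5' ends of protein-coding genes with no 5' end of another gene within 5 kb, numbered 13100 of the 20807 protein-coding promoters on chr1 to chr19 in the GENCODE annotation of mm10. Each was read as the 5' end with 1000 bp on either side, and the other 7707 promoters served for comparison. The data were peak lists of chromatin immunocleavage sequencing (ChIC-Seq), in which an antibody tethers micrococcal nuclease to fixed chromatin and the released fragments are sequenced. Antibodies to PBRM1 and BRG1 were each applied to 3 replicates of stromal cells isolated from the uterus of WT mice at D4, with 50000 cells per library and 5 minutes of fixation. The sample labels name day 4 of pregnancy, whereas the extraction protocol names pseudopregnant mice, and cells of 5 to 10 uterine horns of mice 8 to 12 weeks old were digested together and plated briefly. By the labels all libraries shared one genotype and one day and differed in the antibody, and the 2 IgG libraries were not analysed here.

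SWI/SNF complexes are ATP-driven remodelers that slide or evict nucleosomes. BRG1 (encoded by *Smarca4*) is a catalytic ATPase shared by the BAF and PBAF forms of the complex, whereas PBRM1 (BAF180) is a bromodomain subunit found in PBAF. Active promoters typically hold a nucleosome-depleted region just upstream of the transcription start, followed by the positioned +1 nucleosome inside the gene. Promoters in CpG islands tend to be open in many cell types, and CpG-poor promoters more often belong to genes restricted to 1 cell type. A lone promoter has a single annotated direction, so that the side of the 5' end on which a peak summit falls can be read without a neighbor's start nearby.

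A promoter was called bound in a list when a peak of that list overlapped its 2000 bp region by at least 1 bp. The summit offset was the distance of the peak summit from the 5' end along the strand, positive into the gene and negative upstream, and where a region held several summits the one with the highest -log10 q-value was taken. Promoters were CpG-rich when the 500 bp on either side of the 5' end had an observed/expected CpG ratio of at least 0.6 and at least 55% G and C. By this definition 4359 lone promoters (33.3%) were CpG-rich and 8741 were CpG-poor, against 50.3% CpG-rich among the other promoters.

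Sequences of both classes show what the offsets refer to. The 6 CpG-rich promoters printed first held both pooled summits within 150 bases upstream of the 5' end, and they were taken from the named genes for that reason. They are *Gatad2a* (a NuRD complex subunit), *Stat3* (the transcription factor downstream of LIF), *Klf2* (a Krüppel-like factor), *Dpf3* (a BAF subunit), *Tfrc* (the transferrin receptor) and *Btg2* (an antiproliferative immediate early gene). Each line gives bases -150 to -1 before the 5' end, 5′ to 3′ on the gene's strand, and the capitals mark 5 bases centred on each of the PBRM1 and BRG1 pooled summits. In GRCm38/mm10 they lie at chr8:69996385-69996534 (-), chr11:100939541-100939690 (-), chr8:72318883-72319032 (+), chr12:83487717-83487866 (-), chr16:32608770-32608919 (+) and chr1:134079121-134079270 (-). The PBRM1 summit was the one nearer to the 5' end in *Dpf3* (-67 bp against -106 bp) and *Btg2* (-107 bp against -139 bp), and the BRG1 summit was nearer in *Gatad2a* (-58 bp against -73 bp), *Stat3* (-29 bp against -50 bp), *Klf2* (-65 bp against -131 bp) and *Tfrc* (-81 bp against -136 bp).
Gatad2a: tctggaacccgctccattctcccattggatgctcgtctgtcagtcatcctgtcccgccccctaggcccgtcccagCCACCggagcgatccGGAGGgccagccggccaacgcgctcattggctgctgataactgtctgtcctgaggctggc
Stat3: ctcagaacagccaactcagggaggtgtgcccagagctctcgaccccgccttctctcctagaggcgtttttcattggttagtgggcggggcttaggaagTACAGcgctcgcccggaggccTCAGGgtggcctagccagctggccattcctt
Klf2: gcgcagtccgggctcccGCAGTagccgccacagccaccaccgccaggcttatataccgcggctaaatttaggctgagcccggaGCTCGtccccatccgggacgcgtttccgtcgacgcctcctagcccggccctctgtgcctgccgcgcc
Dpf3: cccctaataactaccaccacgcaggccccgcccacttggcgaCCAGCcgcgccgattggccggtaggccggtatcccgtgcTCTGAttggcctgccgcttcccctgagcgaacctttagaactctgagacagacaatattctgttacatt
Tfrc: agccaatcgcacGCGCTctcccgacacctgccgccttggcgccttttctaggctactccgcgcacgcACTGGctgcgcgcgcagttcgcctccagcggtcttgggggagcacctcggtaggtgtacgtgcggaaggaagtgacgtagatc
Btg2: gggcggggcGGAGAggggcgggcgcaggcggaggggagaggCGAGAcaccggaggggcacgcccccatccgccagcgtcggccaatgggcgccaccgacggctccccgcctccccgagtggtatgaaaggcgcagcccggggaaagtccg

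These 6 stretches held 7 to 19 CpG dinucleotides and 58.7% to 76.7% G and C. The box CCAAT, searched on both strands, lay in *Gatad2a* (bases -127 to -123 and -35 to -31), *Stat3* (-79 to -75), *Dpf3* (-96 to -92 and -65 to -61), *Tfrc* (-148 to -144) and *Btg2* (-69 to -65), and it was not found in the *Klf2* window. CCAAT was in 38.6% of all promoters, in 36.7% of lone ones with both pooled peaks and in 41.2% of those with neither, counted from 250 bases before to 50 after the 5' end, and it also lay in both unbound stretches shown last. At *Nr4a1*, an orphan nuclear receptor of the immediate early class, the summits were further upstream, at -235 bp for PBRM1 and -233 bp for BRG1. Its bases -260 to -201 (chr15:101254009-101254068 (+)) are shown with the bases around both summits in 1 run of capitals.
Nr4a1: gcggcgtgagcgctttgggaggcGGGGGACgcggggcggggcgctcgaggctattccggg

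CpG-poor promoters whose PBRM1 summit lay inside the gene are represented by *Zfp963* (a zinc finger gene), *Gusb* (β-glucuronidase), *Ptges* (prostaglandin E synthase) and *Mmp2* (a gelatinase). The 29 bases centred on the pooled PBRM1 summit are given, with its 5 central bases in capitals, at chr8:69749851-69749879 (-), chr5:130002735-130002763 (-), chr2:30929740-30929768 (-) and chr8:92827571-92827599 (+). Their summits lay 105, 300, 109 and 294 bp downstream of the 5' end, in that order.
Zfp963: tggccgccgctgTGAGGggagcacgggca
Gusb: ctgcgcgctggcTCTGAagggcgggatgc
Ptges: ggacaaggtaagCGGCCagcaagggctgg
Mmp2: cccagggcacagCCAGAgacctcagggtg

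For contrast, 2 CpG-poor promoters with a peak in no list are shown from -150 to -1 with every CpG in capitals. They belong to liver genes, *Alb* (serum albumin, chr5:90460747-90460896 (+)) and *Cyp2e1* (a cytochrome P450, chr7:140763589-140763738 (+)). They held 3 and 0 CpG dinucleotides, against at least 7 in each of the CpG-rich stretches of the same length.
Alb: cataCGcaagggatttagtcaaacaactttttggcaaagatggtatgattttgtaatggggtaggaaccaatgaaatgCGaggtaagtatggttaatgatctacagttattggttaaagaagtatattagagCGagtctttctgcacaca
Cyp2e1: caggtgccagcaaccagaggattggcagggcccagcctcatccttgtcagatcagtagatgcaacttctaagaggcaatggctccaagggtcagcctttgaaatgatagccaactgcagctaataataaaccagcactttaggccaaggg

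The lists rested on 8868777, 12770092 and 16505239 fragments for PBRM1 replicates 1 to 3 and on 14595089, 11506964 and 11740786 for BRG1. The mean fragment length in the file headers was 177, 188 and 179 bp for PBRM1 and 154, 152 and 149 bp for BRG1. PBRM1 replicate 3 was the deepest library and gave the fewest peaks, 21912 against 22976 and 26363 in the other PBRM1 lists and 36656 to 40610 in the BRG1 lists. Since no control library entered the peak calls, a peak marks enrichment over the surroundings in the same library. At the 5 lone promoters among 12 markers of uterine stromal cells (*Vim*, *Pdgfrb*, *Col1a1*, *Pgr* and *Esr1*), both pooled lists had a peak in 5 of 5 (against 62.9% of all protein-coding promoters). The 8 lone promoters of epithelial markers (10 in the list) also had both peaks in 8 of 8, the endothelial markers in 2 of 3, the smooth muscle markers in 3 of 4 and the leukocyte markers in 0 of 4. Peaks in all 6 replicate lists were found at 3 of the 5 stromal and 0 of the 8 epithelial promoters, against 47.8% of all protein-coding promoters. For the endothelial markers it was 1 of 3, for smooth muscle 1 of 4 and for leukocytes 0 of 4.

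Close to 1 in 2 lone promoters carried a peak in a single replicate. PBRM1 peaks lay at 47.9%, 48.2% and 42.7% of lone promoters in replicates 1 to 3 (46.3% ± 3.11, SD, n = 3), and BRG1 peaks at 53.9%, 52.8% and 52.7% (53.1% ± 0.680, SD, n = 3). Every BRG1 value was above every PBRM1 value, a difference of -6.88 percentage points for PBRM1 minus BRG1. An exact permutation of the lists gave a two-sided p of 0.1, which is the lower limit for 3 against 3 lists. Nothing in the labels says that the replicates came from separate cultures or animals, so that p-values measure the spread between these libraries. Fragment length and the number of peaks differed between the antibodies as given above. Depth varied between replicates, and its range for PBRM1 enclosed that for BRG1. The part of these 3 in the difference in share was not tested. With only the 20000 strongest peaks of each list the difference was -1.72 percentage points.

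In the pooled lists, PBRM1 had a peak at 7399 lone promoters (56.5%, 95% Wilson interval 55.6% to 57.3%) and BRG1 at 7914 (60.4%, 59.6% to 61.2%). Over all protein-coding promoters the shares were 63.8% for PBRM1 and 67.1% for BRG1, so that the lone ones were below the background in both. Both antibodies had a pooled peak at 7276 lone promoters (55.5%, against 62.9% of all promoters), PBRM1 alone at 123 (0.939%), BRG1 alone at 638 (4.87%) and neither at 5063 (38.6%). These intervals cover counting error only.

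Replicates repeated these calls at most of the bound promoters. All 3 PBRM1 replicates had a peak at 5228 lone promoters (39.9%, against 48.1% of all protein-coding promoters) and all 3 BRG1 replicates at 6423 (49.0%, against 56.9%). All 6 replicate lists had one at 5185 (39.6%, against 47.8%), which is nearly all of the 5228. No list had a peak at 5000 (38.2%, against 31.5%). Of these 5000, 1260 (25.2%) belonged to the olfactory (*Olfr*) and vomeronasal (*Vmn*) receptor families, whose genes lie in large arrays and are transcribed in sensory neurons.

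Compared with promoters that have a neighbor, lone promoters were bound less often in every list. The share was 46.3% ± 3.11 against 67.9% ± 2.40 for PBRM1 and 53.1% ± 0.680 against 73.4% ± 0.651 for BRG1 (SD, n = 3 each). The difference was -21.0 percentage points over the 6 lists and had the same sign in 6 of 6 (two-sided exact sign-flip permutation test, p = 0.03125, the smallest that 6 lists allow, adjusted p = 0.0417 over 8 comparisons of this kind). It depended on the distance that defines a lone promoter, at -12.7 percentage points with 10 kb and -31.3 with 2 kb, and with a 500 bp region its adjusted p was 0.0625 by the same exact test. Without the olfactory and vomeronasal families the shares were 51.2% ± 3.45 against 69.6% ± 2.44 for PBRM1 and 58.8% ± 0.756 against 75.3% ± 0.668 for BRG1. Within CpG-rich promoters the gap was small, 85.7% ± 5.15 lone against 91.4% ± 2.80 other for PBRM1 and 94.9% ± 0.649 against 96.2% ± 0.471 for BRG1. Within CpG-poor promoters it was wider, 26.6% ± 2.17 against 44.0% ± 2.30 and 32.3% ± 0.701 against 50.4% ± 0.861. The 5 kb limit itself marked no step. Promoters whose nearest other 5' end was 4 to 5 kb away (n = 746) were bound at 42.2% ± 2.02 by PBRM1 and 48.2% ± 0.774 by BRG1, and those at 5 to 6 kb (n = 698) at 43.0% ± 2.06 and 49.1% ± 0.798.

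CpG-rich lone promoters were bound far more often than CpG-poor ones. PBRM1 peaks lay at 89.1%, 88.1% and 79.7% of CpG-rich and at 27.3%, 28.4% and 24.2% of CpG-poor lone promoters in replicates 1 to 3. BRG1 peaks lay at 95.6%, 94.5% and 94.5% of the CpG-rich and at 33.1%, 32.1% and 31.8% of the CpG-poor ones. No list overlapped between the classes, with a mean of 90.3% against 29.5% over the 6 lists (difference 60.8 percentage points, exact sign-flip permutation test, two-sided, adjusted p = 0.0417, same sign in 6 of 6, and adjusted p = 0.0625 with a 500 bp region). Without the receptor families the CpG-poor share was 31.1% ± 2.55 for PBRM1 and 37.8% ± 0.824 for BRG1.

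**Figure D1:**
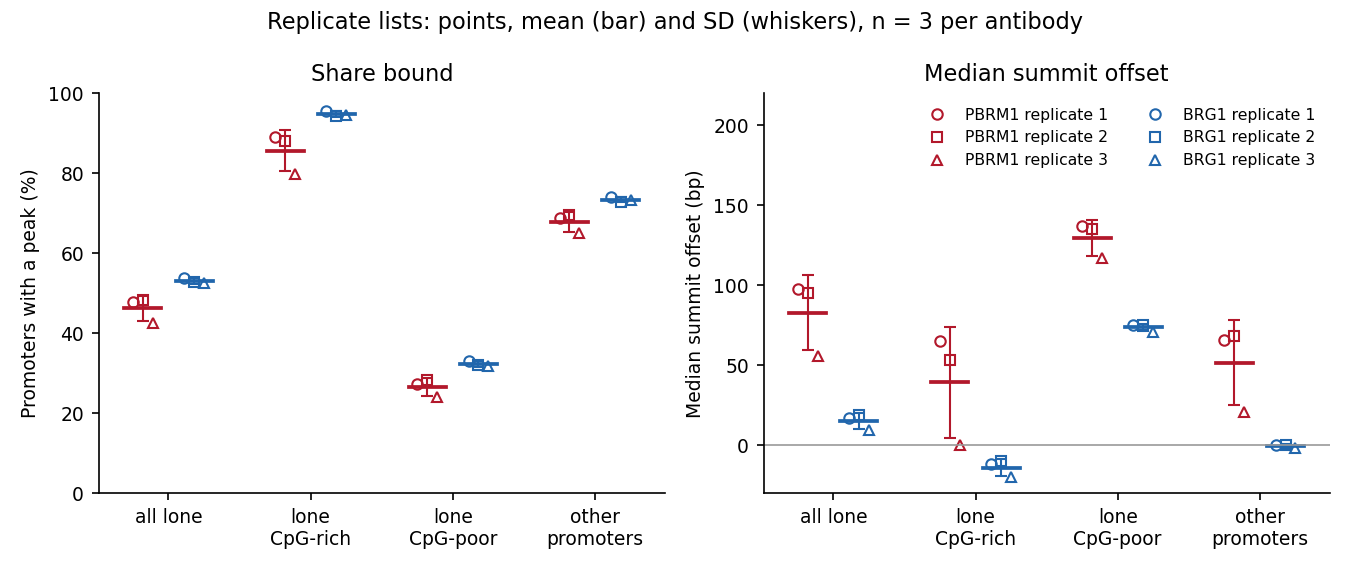
Share of promoters with a peak (left, percent) and median summit offset (right, bp) in each replicate list, for all lone promoters, the CpG-rich and CpG-poor lone promoters and the promoters with a neighbor. Points are replicates, bars means and whiskers SD (n = 3). BRG1 lies above PBRM1 in share and below it in offset in every class, and PBRM1 replicate 3 has the lowest PBRM1 offset throughout.

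Across 4 groups of lone promoters cut at the quartiles of observed/expected CpG, the PBRM1 share went from 2.06% ± 0.326 to 19% ± 2.49, 75.9% ± 5.49 and 88.0% ± 4.68, and the BRG1 share from 3.23% ± 0.321 to 26.9% ± 1.13, 86.2% ± 0.827 and 96.1% ± 0.502 (SD, n = 3). The widest step, from the second to the third group, lay between promoters with ratios of 0.179 to 0.449 and those with 0.449 to 0.735. A CpG-rich promoter without a peak in any list was found 66 times (1.51% of the class), whereas 1825 CpG-poor promoters (20.9%) had a peak in all 6 replicate lists.

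**Figure D2:**
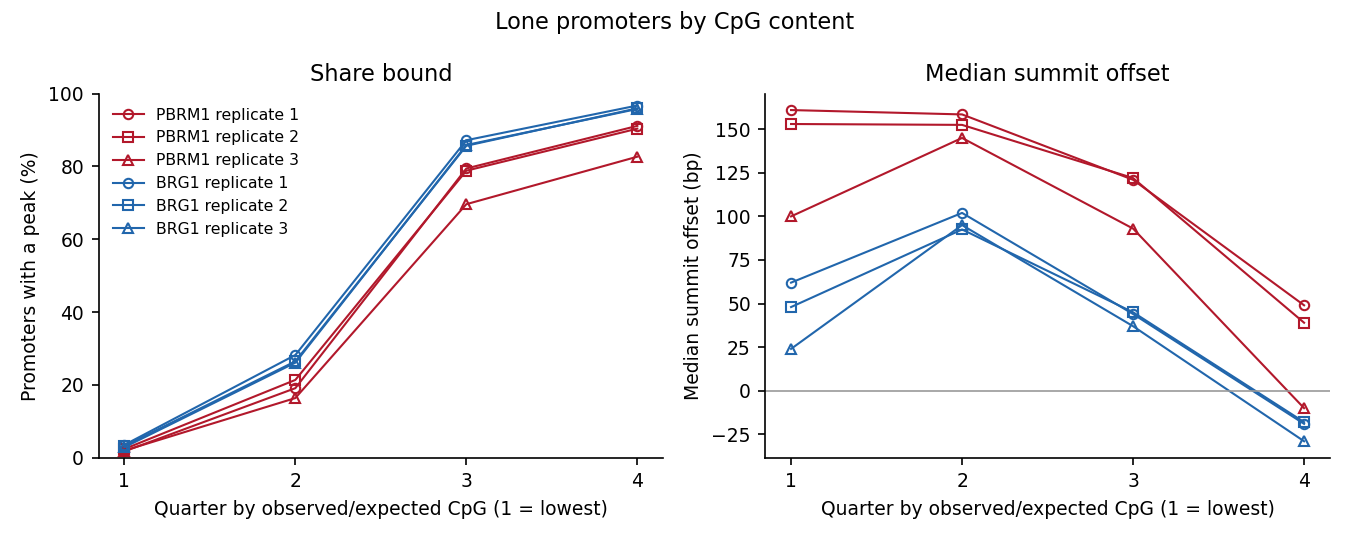
Share of lone promoters with a peak (left, percent) and median summit offset (right, bp) in quartile groups of observed/expected CpG, 1 line per replicate list. The share climbs in all 6 lists, most between groups 2 and 3, and the offset is lowest in group 4, where the mean is 26.0 bp for PBRM1 and -22.0 bp for BRG1.

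Summits of both antibodies lay close to the 5' end, with those of PBRM1 further into the gene. Median PBRM1 offsets were 98, 95 and 56 bp in replicates 1 to 3 (83.0 ± 23.4 bp, SD, n = 3), and median BRG1 offsets were 17, 19 and 9.5 bp (15.2 ± 5.01 bp, SD, n = 3). The antibodies did not overlap, and they differed by 67.8 bp (exact permutation over the 6 lists, two-sided p = 0.1, as low as 3 against 3 can reach, adjusted p = 0.1 over 4 antibody comparisons). Replicate 3 of PBRM1 lay between the other PBRM1 lists and BRG1, and without it the difference was 81.3 bp. The pooled lists gave 89 bp at 7259 promoters for PBRM1 and 12.5 bp at 7748 for BRG1. At the 7091 promoters with both pooled summits, the median of PBRM1 minus BRG1 at the same promoter was 9 bp. Over the 6 lists together the median was downstream of the 5' end (mean 49.1 bp, positive in 6 of 6 lists, exact sign-flip permutation test, two-sided, adjusted p = 0.0417). This call was lost with a 500 bp region (35.5 bp, exact test, adjusted p = 0.1) and at promoters with a summit in all 6 lists (40.0 bp, exact test, adjusted p = 0.0833).

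The fullest part of the distribution also lay on different sides of the 5' end. Downstream summits made up 67.3%, 66.2% and 58.6% of PBRM1 summits against 54.6%, 54.9% and 52.4% of BRG1 summits, a difference of 10.0 percentage points (exact permutation test, two-sided, p = 0.1). In 50 bp bins, the fullest PBRM1 bin was 100 to 149 bp downstream in every replicate (11.9%, 12.1% and 10.0% of summits) and the fullest BRG1 bin was 50 to 1 bp upstream (14.2%, 14.4% and 15.0%). PBRM1 replicate 3 had a second high bin at the BRG1 position, with 9.22% of its summits against 6.80% and 6.54% in replicates 1 and 2. Within 50 bp of the 5' end lay 15.2% ± 1.69 of PBRM1 and 26.6% ± 0.241 of BRG1 summits (SD, n = 3), and the median distance regardless of side was 152 ± 6.08 bp against 113 ± 1.53 bp (exact permutation test, two-sided, p = 0.1). The PBRM1 fragments were longer than those of BRG1 by the lengths given above, and the part of fragment length in these positions was not tested.

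**Figure D3:**
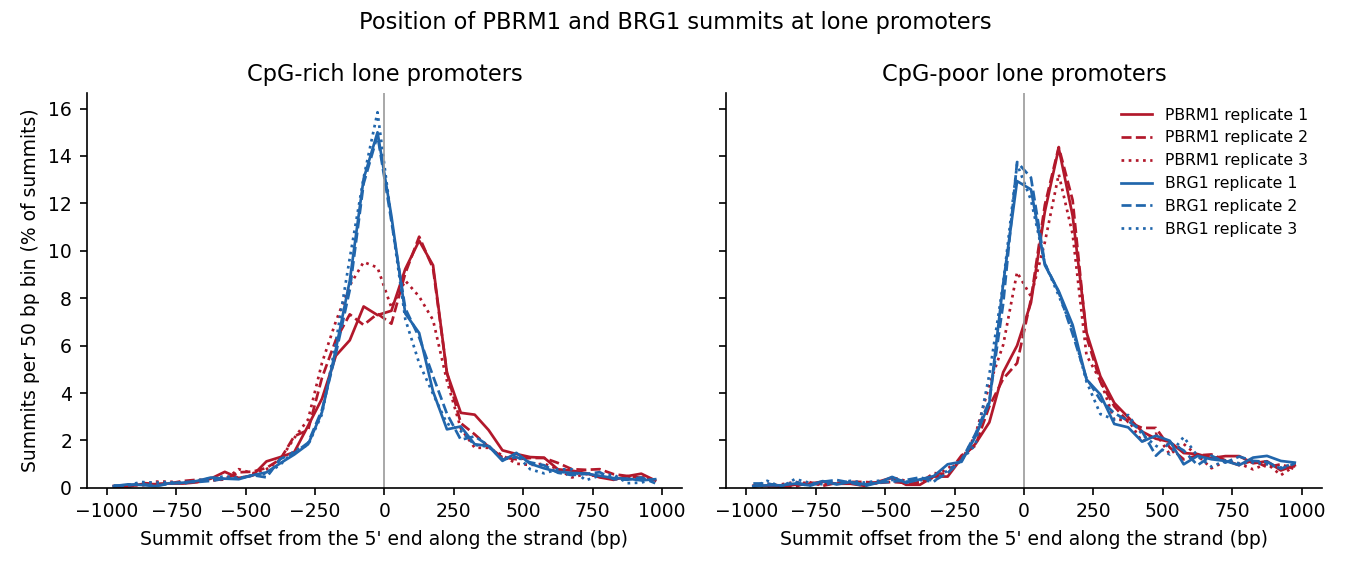
Summit offsets along the strand in 50 bp bins, as percent of the summits of each replicate list, for CpG-rich (left) and CpG-poor (right) lone promoters. The fullest BRG1 bin is just upstream of the 5' end in both classes, and at CpG-poor promoters the bin just downstream is nearly as full. PBRM1 summits peak 100 to 149 bp downstream at CpG-poor promoters, and at CpG-rich ones they spread over both sides, with replicate 3 highest upstream.

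Summits at CpG-rich promoters lay further upstream than those at CpG-poor promoters. At CpG-rich promoters the median PBRM1 offset was 65, 53 and 0 bp in replicates 1 to 3 and the BRG1 offset -12, -10 and -20 bp. CpG-poor promoters had 137, 135 and 117 bp for PBRM1 and 75, 75 and 71 bp for BRG1. Each list was lower at CpG-rich promoters, by -72 to -117 bp (mean -89.0 bp, exact sign-flip permutation test, two-sided, adjusted p = 0.0417). With a 500 bp region, or at promoters with a summit in all 6 lists, the adjusted p was 0.0625 by the same exact test, with the same sign. The shift was -90.3 ± 23.6 bp for PBRM1 and -87.7 ± 3.06 bp for BRG1, and the difference between these shifts was within their spread (-2.67 bp, exact permutation test, two-sided, p = 1). Downstream summits accordingly made up 77.7% ± 3.93 of PBRM1 and 66.7% ± 0.862 of BRG1 summits at CpG-poor promoters, and 55.7% ± 5.17 and 45.4% ± 1.59 at CpG-rich ones (SD, n = 3). Distance regardless of side differed little, with -8.75 bp for CpG-rich minus CpG-poor (adjusted p = 0.0417 by the same exact test), and this small difference turned positive with a 500 bp region, a stricter CpG ratio or the principal transcript's 5' end.

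Offsets were also set against promoters with a neighbor. The median was higher at lone promoters in all 6 lists, by 32, 27 and 35 bp for PBRM1 and by 17, 19 and 11.5 bp for BRG1 (mean 23.6 bp, exact sign-flip permutation test, two-sided, adjusted p = 0.0417). The call was lost with a 500 bp region and at promoters with a summit in all 6 lists (adjusted p = 0.0625 for both by the same exact test, same sign). With 10 kb in place of 5 kb the difference was 13.0 bp. Lone promoters included fewer CpG-rich ones, as given above. Within CpG-rich promoters the means were 39.3 ± 34.6 bp lone against 11.3 ± 25.5 bp other for PBRM1 and -14.0 ± 5.29 against -22.3 ± 1.15 bp for BRG1, and within CpG-poor ones 130 ± 11.0 against 111 ± 14.9 bp and 73.7 ± 2.31 against 56.3 ± 8.50 bp. The most isolated promoters, 1546 with no other 5' end within 50 kb, had 86.7 ± 20.8 bp for PBRM1 and 22.3 ± 5.69 bp for BRG1.

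Neither strand nor the number of starts passed the test for the offset. Genes on the plus strand differed from those on the minus strand by -3.83 bp (two-sided exact sign-flip permutation test, adjusted p = 0.107), a difference that passed at -6.08 bp with an isolation of 10 kb and also, with the opposite sign, at 6.25 bp with the principal transcript's 5' end (adjusted p = 0.0417 for both). The 4297 genes whose transcripts all start within 100 bp differed from the 8803 with further starts by -5.17 bp (adjusted p = 0.125 by the same exact test), which became 15.8 bp with the principal transcript's 5' end and then passed with the opposite sign (adjusted p = 0.0417). Single-start genes were bound less often, at 29.1% ± 2.75 against 54.6% ± 3.29 for PBRM1 and 35.4% ± 0.534 against 61.8% ± 0.760 for BRG1 (SD, n = 3), a contrast that was not tested. CpG-rich promoters made up 859 of the 4297, against 33.3% of all lone promoters. Within the CpG-rich class single-start promoters were bound at 77.5% ± 6.85 by PBRM1 and 90.9% ± 0.538 by BRG1. Within the CpG-poor class it was 17.0% ± 1.78 and 21.5% ± 0.534. All lone promoters of these classes had 85.7% and 94.9%, and 26.6% and 32.3%. The offset also depends on which 5' end it is counted from. With the 5' end of the APPRIS principal transcript in place of the gene's 5' end, the mean over the 6 lists was 28.0 bp and its adjusted p was 0.25.

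At promoters bound by both, the summits of the antibodies were compared one by one. Of 7091 lone promoters with both pooled summits, 3250 (45.8%) had them within 50 bp of each other. Promoters with a neighbor had the same share, 2584 of 5647 (45.8%), so that this closeness was not particular to lone promoters. PBRM1 lay over 100 bp further downstream at 1764 lone promoters (24.9%) and BRG1 at 918 (12.9%), against 22.3% and 17.1% of those with a neighbor. The median of PBRM1 minus BRG1 at the same lone promoter was 9 bp in the pooled lists and 2 to 23 bp in the 9 replicate pairs. At promoters with a neighbor it was 2 bp in the pooled lists. Pairs of PBRM1 replicates gave median differences of 2 to 9 bp and pairs of BRG1 replicates 0 to 1 bp. The typical shift at a single promoter was thus smaller than the 67.8 bp between the antibody medians. The summits fell on opposite sides of the 5' end mostly in 1 order, with PBRM1 inside and BRG1 upstream at 16.6% and the reverse at 5.01%. The shares were 14.9% and 5.97% at promoters with a neighbor. Replicates set the scale for these distances. In pairs of BRG1 replicates 57.5% to 58.0% of promoters had summits within 50 bp, in pairs of PBRM1 replicates 47.3% to 49.9%, and in the 9 pairs across antibodies 36.7% to 44.1%. Over the 5048 promoters with a summit in all 6 lists, the 3 PBRM1 summits spanned a median of 107 bp and the 3 BRG1 summits 65 bp. A shift of the size between the antibody medians was thus within the replicate spread of many single promoters. In this common set the median offsets were 91, 87 and 50 bp for PBRM1 and 5, 8 and -1 bp for BRG1.

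Most downstream summits fell in the first exon. Upstream of the 5' end lay 35.8% ± 4.76 of PBRM1 and 45.6% ± 1.41 of BRG1 summits, within the first exon 40.4% ± 3.08 and 37.3% ± 1.01, and beyond it 23.8% ± 1.74 and 17.1% ± 0.449 (SD, n = 3). The first exon here is the longest one that starts at the gene's 5' end.

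Stronger peaks had their summits further upstream, with strength taken as the fold enrichment that the authors' peak caller wrote. This is a description over promoters and was not tested. With the summits of each list cut at the quartiles of fold enrichment, from the weakest to the strongest group, the PBRM1 median offset was 133 ± 23.5, 97.2 ± 16.4, 71.2 ± 20.6 and 41.5 ± 40.7 bp, and the BRG1 median offset was 103 ± 3.51, 49.2 ± 7.52, 5.00 ± 3.61 and -30.3 ± 4.93 bp (SD, n = 3). The strongest BRG1 group thus lay mostly upstream of the 5' end, with 38.2% ± 2.17 downstream against 65.8% ± 1.10 in the weakest. CpG-rich promoters made up 75.2% to 76.2% of the strongest and 42.1% to 44.7% of the weakest BRG1 group, so that enrichment and CpG content moved together, and their parts were not told apart by a test.

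**Figure D4:**
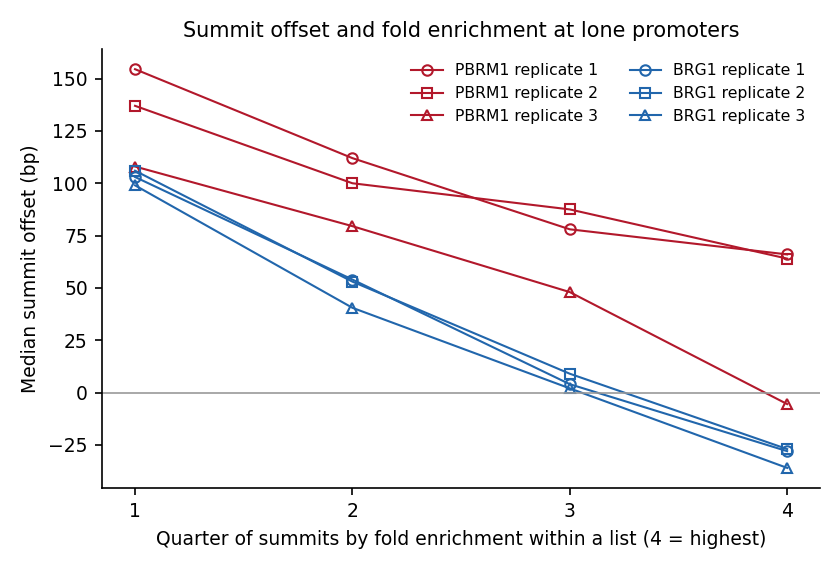
Median summit offset (bp) in quartile groups of the summits of each replicate list by fold enrichment, from weakest (1) to strongest (4). All 6 lines fall, from 99 to 154.5 bp in group 1 to between -36 and 66 bp in group 4. The BRG1 lines cross the 5' end, and so does PBRM1 replicate 3, at -5.5 bp in group 4.

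Short motifs were counted as exact letters on both strands in the 250 bases before to the 50 after the 5' end, as a description. The motif GGGCGG of GC boxes was in 39.4% of lone promoters (43.8% of all), in 62.5% of those with both pooled peaks and in 7.60% of those with neither. Within the CpG-rich class the shares with both and with neither were 78.1% and 76.8%, and within the CpG-poor class they were 41.5% and 6.65%. The ETS motif CCGGAAG was in 8.39% of lone promoters (11.0% of all), in 11.5% of CpG-poor promoters with both peaks and in 1.88% of CpG-poor ones with neither. For the AP-1 motif TGAGTCA (5.05% of lone and 4.53% of all promoters) the order was the opposite, 4.85% with both peaks and 7.01% with neither among CpG-poor promoters. None of these 3 motifs holds another of them, and only TGAGTCA holds no CG. With CG, TGCGCA (8.83% with both, 1.64% with neither) and TGACGTCA (2.52% and 0.541%) were also more frequent with both peaks among CpG-poor promoters. Without CG, CCAAT (37.8% and 41.3%) was less frequent with both, whereas AAGATGGC was more frequent. Binding rose with the CpG ratio within this class too, from the first to the second quartile group above. The part of CpG content in these motif contrasts was not tested.

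A TATAAA box, searched on the gene's strand with its first base 40 to 20 bases before the 5' end, was in 398 lone promoters (3.04%, against 2.48% of all). They were bound at 15.9% ± 1.89 by PBRM1 and 21.5% ± 0.632 by BRG1, against 47.2% ± 3.16 and 54.1% ± 0.684 without the box (SD, n = 3). Only 45 of them were CpG-rich, and of the 353 CpG-poor ones 8.03% (7.37% to 8.50% over the replicates) were bound by PBRM1 and 12.2% (11.3% to 12.7%) by BRG1, against 27.4% ± 2.24 and 33.2% ± 0.705 of CpG-poor promoters without it. BRG1 offsets at TATAAA promoters were -36, -14 and -3.5 bp (-17.8 ± 16.6 bp), where 82 to 85 summits stood behind each value.

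Genes of the SWI/SNF complex itself were bound nearly throughout. Of 14 lone promoters on this list, 13 had both pooled peaks (92.9%, against 62.9% of all promoters) and 8 had peaks in all 6 replicates (against 47.8% of all promoters). CpG-rich promoters made up 11 of these 14, and that class was bound at 96.1% by PBRM1 and 98.3% by BRG1 in the pooled lists. *Dpf3* had PBRM1 summits at -86, -66 and -94 bp and BRG1 summits at -104, -102 and -106 bp in replicates 1 to 3, so that the BRG1 summits were all further upstream. *Phf10*, a PBAF subunit gene, had them near +500, at 505 and 506 bp for PBRM1 in replicates 1 and 2 and at 512, 550 and 543 bp for BRG1. PBRM1 replicate 3 had no *Phf10* peak. *Bcl7b*, encoding an accessory subunit, held summits at 579, 387 and 570 bp for PBRM1 and at 570, 576 and 460 bp for BRG1. *Smarcb1*, a core subunit gene, had PBRM1 at 327, 146 and 177 bp and BRG1 at 38, 110 and 33 bp, and these did not overlap. *Actl6a* was the single unbound gene of the list, and its principal transcript starts 2209 bp further in, where the nearest pooled PBRM1 summit lay at 2214 bp.

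Among 28 lone promoters of progesterone and implantation genes, 22 had both pooled peaks (78.6%, against 62.9% of all promoters), 15 had peaks in all 6 replicates (against 47.8% of all promoters) and 3 had neither. CpG-rich promoters made up 15 of the 28. *Stat3* summits were at -29, -50 and -50 bp for PBRM1 and at -33, -29 and -29 bp for BRG1, with a fold enrichment of 8.33, 9.76 and 7.94 and of 10.4, 14.8 and 12.1. *Klf9*, a progesterone-responsive regulator, had them at -278, -297 and -288 bp and at -293, -277 and -184 bp. Both genes were thus bound upstream in all 6 lists. *Smo*, the Hedgehog signal transducer, was among the 16.6% of promoters with PBRM1 inside and BRG1 upstream by the pooled summits, here with PBRM1 inside the gene (92, 86 and 48 bp) and BRG1 upstream (-50, -49 and -82 bp). The principal transcript of *Smo* starts 191 bp further in. Counted from that start both pooled summits were upstream, at -117 bp for PBRM1 and -243 bp for BRG1. *Ptges* had PBRM1 at 148, 109 and 91 bp and BRG1 at 141, 156 and 49 bp, on the same side and overlapping. Its principal transcript starts 26566 bp further in. *Pgr*, the progesterone receptor, had a pooled PBRM1 summit at 831 bp and peaks in all 6 replicates, and its BRG1 peak reached into the region with the nearest summit at 2134 bp. *Esr1*, the estrogen receptor, had a pooled PBRM1 summit at -4 bp and a PBRM1 peak in 0 of 3 replicates, with BRG1 in 2 of 3. The unbound genes were *Lif*, *Lifr* and *Fgf10*. *Lif*, the cytokine required for implantation, had its nearest pooled summits just outside the region, at 1282 bp for PBRM1 and 1288 bp for BRG1. *Lifr* and *Fgf10* have principal transcripts that start 38945 and 44908 bp further in.

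Immediate early genes, which respond within minutes to signals and to tissue handling, were bound at 10 of 12 lone promoters by both antibodies in the pooled lists and at 8 in all 6 replicates (against 62.9% and 47.8% of all promoters). CpG-rich promoters, which were bound at 96.1% by PBRM1 and 98.3% by BRG1 in the pooled lists, made up 10 of these 12. *Klf2* held PBRM1 summits at -138, -131 and -121 bp and BRG1 summits at -63, -65 and -66 bp, with no overlap. *Nr4a1* had them at -233 and -235 bp for PBRM1, with no peak in replicate 3, and at -245, -233 and -236 bp for BRG1. *Btg2* had PBRM1 at -98, -118 and -105 bp and BRG1 at -162, -137 and -84 bp, with overlap. *Fosl1*, an AP-1 subunit, was bound inside the gene, at 208, 183 and 198 bp for PBRM1 and at 125, 107 and 262 bp for BRG1. *Atf3* was unbound, and its principal transcript starts 34699 bp further in. *Egr3* had BRG1 summits at -388, -377 and -379 bp and no PBRM1 peak in any list.

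The 13 lone promoters of stromal and matrix genes had both pooled peaks in 10 (76.9%, against 62.9% of all promoters). Peaks in all 6 replicates were found in only 4 (30.8%, against 47.8% of all promoters), and 2 of the 13 were CpG-rich. *Vim* (vimentin) had scattered summits, at 632, 740 and -141 bp for PBRM1 and at 295, 260 and 710 bp for BRG1. *Mmp2* was bound inside the gene, at 283, 340 and 249 bp and at 82, 270 and 340 bp. *Tnc* (tenascin C) had PBRM1 peaks in 2 of 3 replicates, at 100 and -88 bp, and BRG1 at -73, -75 and -85 bp. Its principal transcript starts 26290 bp further in. *Twist1*, a mesenchymal transcription factor, had PBRM1 at -8 and 786 bp in 2 of 3 replicates and BRG1 at -6, -37 and -229 bp. *Sparc* had no peak in the region, and its principal transcript starts 3103 bp further in.

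Of 14 lone housekeeping promoters, 13 had both pooled peaks and 12 had peaks in all 6 replicates, against 62.9% and 47.8% of all promoters. CpG-rich promoters made up 9 of the 14. *Rplp0*, a ribosomal protein gene, had PBRM1 at -170, -149 and -166 bp and BRG1 at -141, -157 and -155 bp. *Tfrc* had -138, -87 and -139 bp and -68, -81 and -149 bp. *Ppia* (cyclophilin A) was bound inside the gene with PBRM1 nearer to the 5' end (258, 260 and 243 bp) than BRG1 (388, 380 and 388 bp), the reverse of *Smo*. *Gusb* had PBRM1 at 342, 315 and 288 bp and BRG1 at 215, 138 and 114 bp. *Ldha* was unbound at its annotated 5' end, and its principal transcript starts 4364 bp further in.

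For genes typical of other cells, as for the stromal and matrix genes above, pooled peaks often stood without peaks in every replicate. CpG-rich promoters made up 2 of 12 in the epithelial list and 2 of 13 in the endothelial, immune and muscle list. In the list of other tissues they made up 2 of 16. Of CpG-poor lone promoters in general, 20.9% had peaks in all 6 replicate lists. Of 12 lone epithelial promoters, 9 had both pooled peaks and 0 had peaks in all 6 replicates, against 62.9% and 47.8% of all promoters. *Cdh1* (E-cadherin) had PBRM1 in 2 of 3 replicates, at 201 and 135 bp, and BRG1 at 10, -9 and -36 bp. *Krt18* had PBRM1 at 212 and -34 bp in replicates 2 and 3 and BRG1 at -40 and -35 bp in replicates 1 and 3. Endothelial, immune and muscle genes had both pooled peaks at 5 of 13 (38.5%, against 62.9% of all promoters) and neither at 7, among them *Cnn1* and *Csf1r*. *Kdr* (VEGF receptor 2) was bound in all 6 lists, at 133, 147 and 74 bp and at 153, 102 and 178 bp. *Tek* had BRG1 summits at -221, -299 and -6 bp and a PBRM1 peak in 0 of 3 replicates. Of 16 genes of other tissues, 3 had both (18.8%, against the same 62.9%) and 11 neither. *Dazl*, a germ cell gene with a CpG-rich promoter, was the 1 of these 16 with peaks in all 6 replicates, with PBRM1 at 868, 885 and 881 bp and BRG1 at 807, 821 and 831 bp. Among the large families, 1 of 966 lone *Olfr* and 0 of 297 lone *Vmn* promoters had both pooled peaks, against 181 of 243 (74.5%) for the *Zfp* zinc finger genes. These lists were chosen with results of these data known, and their counts are descriptions.

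**Figure D5:**
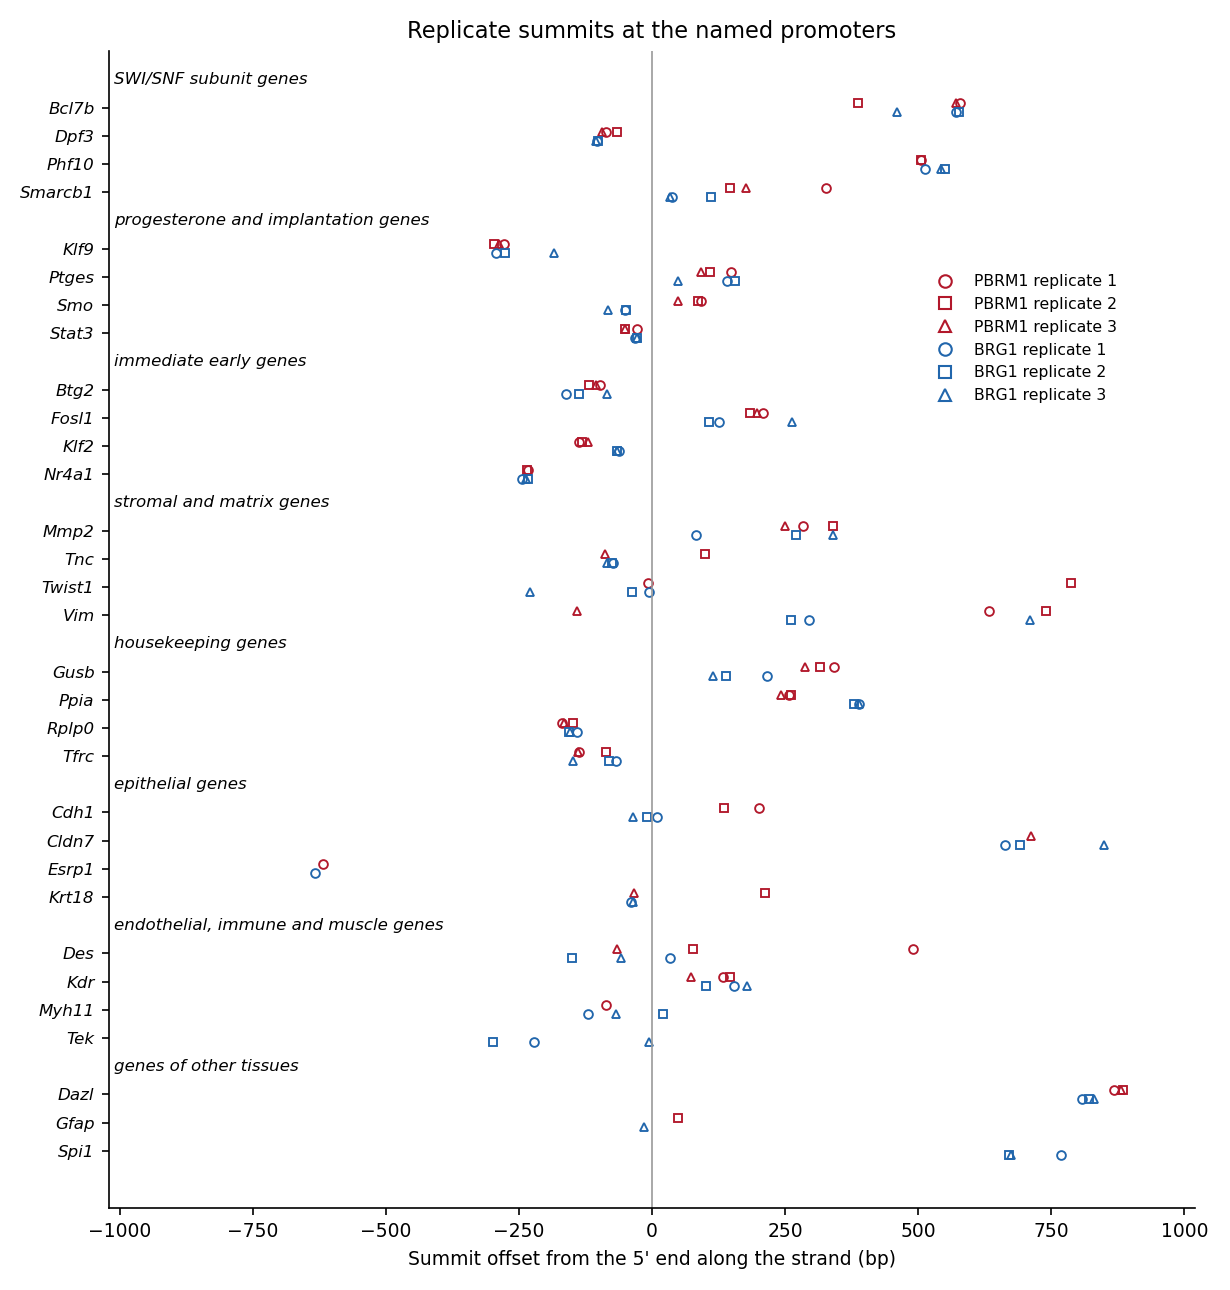
Summit offset (bp) of every replicate at the lone promoters with the highest pooled PBRM1 fold enrichment in each gene list. The summits of the 2 antibodies coincide at genes such as *Nr4a1* and *Rplp0*, lie apart at *Klf2*, *Smo* and *Ppia*, and scatter at *Vim* and *Des*.

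The sharpest promoters placed every replicate summit of an antibody within 50 bp, which 743 of the 13100 lone promoters did for both. The same count over all protein-coding promoters is not given here, so that it has no background beside it. Of the 743, the highest pooled PBRM1 -log10 q-values belonged to *Gm10800*, *Ggct*, *Zfp963*, *Fahd1*, *P4hb* and *Gatad2a*. *Ggct*, encoding γ-glutamylcyclotransferase, had PBRM1 at -14, 12 and 1 bp and BRG1 at -1, -10 and -3 bp, at a fold enrichment of 19.6, 15.4 and 14.7 and of 18.9, 19.8 and 17.0, so that both summits lay close to the 5' end on either side. *Zfp963* had PBRM1 at 103, 93 and 112 bp and BRG1 at 136, 157 and 151 bp. *Fahd1* had 125, 134 and 143 bp and 159, 170 and 184 bp, and *P4hb* (protein disulfide isomerase) 132, 141 and 155 bp and 143, 155 and 155 bp. At *Gatad2a* PBRM1 lay at -75, -77 and -57 bp and BRG1 at -58 bp in 3 of 3 replicates. *Gm10800* stood apart, with its summit at 169 bp in all 8 lists and a fold enrichment of 22.8 to 24.7 for PBRM1 and 25.7 to 27.5 for BRG1 in the replicates. The same base led in every library there, whichever antibody was used, and the IgG libraries that could show signal without either antibody were not analysed here.

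At any distance from the 5' end, 1112 of the 13100 lone promoters kept all 6 summits within 100 bp of each other, a count that also has no background here. The most upstream by median were *Sox12* (PBRM1 at -902, -879 and -882 bp, BRG1 at -880, -876 and -887 bp), *Dusp7* (-868, -860 and -839 bp, and -850, -872 and -860 bp) and *Npas2* (-820, -832 and -796 bp, and -796, -784 and -809 bp). The most downstream were *Elk3* (908, 876 and 917 bp, and 947, 930 and 959 bp), *Sub1* (886, 903 and 894 bp, and 901, 908 and 891 bp) and *Fstl3* (950, 878 and 896 bp, and 882, 880 and 863 bp). Since these 6 were chosen for close summits and then for distance from the gene's 5' end, both traits follow from the choice.

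Promoters bound by BRG1 in 3 of 3 replicates with a PBRM1 peak in no list numbered 23 of the 13100 lone ones, and those with the antibodies exchanged numbered 0. Those with the highest pooled BRG1 -log10 q-values were *Dok7* (BRG1 at 24, 43 and 40 bp, at a fold enrichment of 6.69, 7.48 and 8.88), *Bahd1* (974, 959 and 961 bp, at 7.26, 8.00 and 8.48) and *Egr3*, described above. BRG1 lists held more peaks in all, so that these counts cannot be set against each other at equal sensitivity. The same calls over all protein-coding promoters are not given here, so that the counts have no background beside them.

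Some unbound promoters had their principal start elsewhere. Of the 5063 lone promoters with no pooled peak, 622 (12.3%) have an APPRIS principal transcript that starts over 1000 bp inside the gene, and 329 of these (52.9%) had a pooled peak within 1000 bp of that start. Among the 7276 with both pooled peaks, 463 (6.36%) had such a distant principal start. For the 69 CpG-rich promoters without a pooled peak the number was 6.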

How the data were processed

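ChIC-Seq peak lists of 3 PBRM1 and 3 BRG1 libraries and 1 pooled list per antibody were used. No list of the 2 IgG libraries was used here. The submitters' processing notes name cutadapt, Bowtie2, MACS2 and the build GRCm38.p5 (mm10). Per the file headers, MACS 2.2.7.1 called the peaks on paired fragments with a q-value cutoff of 0.05, a local background over 10000 bp and no control. The pileup signal, the fold enrichment over that background, the -log10 p-value and -log10 q-value and the summit position were used as deposited. The total fragment number and fragment length of each list, 8868777 to 16505239 and 149 to 188 bp in the replicates, were read from the headers and set the precision of each list. A peak list holds no signal where no peak was called.

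Genes, transcripts and exons came from the GENCODE annotation of mm10, with the 5' end of the gene as reference point. The peak with the highest -log10 q-value represented a region with several summits. Sequences were read from the GRCm38 genome of RefSeq, and 8 of 8 windows inside a RefSeq promoter had the same letters there. Antibodies were compared by exact permutation of the 6 replicate lists and classes of promoters by exact sign flips over them, both two-sided, with Benjamini-Hochberg adjustment over 4 and 8 comparisons. Promoters are not replicates, and shares of single lists carry 95% Wilson intervals. The scripts were tested on simulated peaks, where 6533 of 6533 planted offsets were recovered and 0 of 6567 empty promoters were called, and bedtools 2.31.1 gave the same 7399 and 7914 bound promoters. Python 3.11.15, numpy 2.4.6, pandas 2.3.3, scipy 1.17.1, pysam 0.24.0 and matplotlib 3.10.9 were used.

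Named genes were the up to 4 lone promoters of each gene list with the highest pooled PBRM1 fold enrichment and up to 3 in alphabetical order without a pooled peak. They also included the 6 with the highest pooled PBRM1 -log10 q-value among those whose replicate summits lay within 50 bp for each antibody, the 3 most upstream and 3 most downstream of those with 6 summits within 100 bp, and the 3 strongest bound by BRG1 in 3 of 3 replicates and by PBRM1 in no list. *Pgr*, *Esr1* and the sequences shown were chosen after their values were seen. The members and lists were chosen with earlier results of these data known.

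Samples with the same replicate number did not deviate together (correlation of summit deviations from -0.0230 to 0.0161 over 5048 promoters, all number pairs), so that the numbers were not taken as pairs. Between 0.0609% and 0.180% of peak intervals were identical between replicates of an antibody. Alternatives covered the peak threshold, the number of peaks, the isolation distance, the region, the neighbor types, the 5' end, the choice of summit, the CpG limit, the spread of starts and each list left out. The values of 1 gene of the named lists are not reported here.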

Additional observations from a re-analysis of the deposited data

How the results depend on the processing

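Of 137 alternatives other than left-out lists, 116 kept direction and side of the threshold, 12 lost the call, 7 changed sign and 2 gained a call with the sign kept. With an isolation of 10 kb the CpG difference in distance was -5.75 bp and lost its call, and the strand difference was -6.08 bp and passed (exact test, adjusted p = 0.0417), as it did with 2 kb at -6.25 bp (exact test, adjusted p = 0.0357). With a region of 500 bp the offset from 0 (35.5 bp), the lone minus other share (-20.2 points) and offset (20.3 bp) and the CpG share (61.2 points) and offset (-75.4 bp) kept their signs and lost their calls, while the CpG difference in distance (2.17 bp) and the single-start difference (2.17 bp) changed sign. With the APPRIS 5' end the offset from 0 was 28.0 bp without a call, and the CpG distance (3.67 bp), single-start (15.8 bp) and strand (6.25 bp) differences changed sign, the last 2 of them gaining a call (exact test, adjusted p = 0.0417). At promoters with a summit in all 6 lists the calls were lost for the offset from 0 (40.0 bp), lone minus other (21 bp), the CpG offset (-90.3 bp) and the CpG distance (-2.50 bp). The CpG distance was 1.42 bp at an observed/expected ratio of 0.75 and -10.8 bp at 0.4, and the single-start difference was 2.42 bp with starts within 300 bp. The causes of the changes in value were not tested.

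Leaving out 1 list, where exact sign flips cannot go below p = 0.0625, gave 39.3 to 57.0 bp for the offset from 0, -21.1 to -20.7 points and 21.3 to 26.0 bp for lone minus other promoters, 60.4 to 61.8 points, -92.4 to -83.4 bp and -10.1 to -7.30 bp for CpG-rich minus CpG-poor, -6.40 to -3.60 bp for single-start genes and -5.40 to -3.20 bp for strand. PBRM1 minus BRG1 then gave -7.87 to -5.08 points in share, 60.3 to 81.3 bp in offset, 8.40 to 12.8 points downstream and 36.7 to 42.2 bp in distance. With the replicate block these 4 differences were -6.88, 67.8, 10.0 and 38.7, each at an exact p of 0.25, the lower limit for 3 pairs. A peak list gives no value at unbound promoters, so that the offsets describe called peaks, and the part of depth in the share bound was not tested. The deepest PBRM1 library had the lowest share.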
